A study of Mus musculus with 30 samples.

Results

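The 6 genes described here encode or regulate the enzymes and transfer proteins that remodel lipoproteins: the lipases Lpl and Lipc, the phospholipid transfer protein Pltp, the cholesterol-esterifying enzyme Lcat, the lipase inhibitor Angptl4 and the lipase maturation factor Lmf1. They were chosen by symbol, and each had 1 row in both count tables, so that they are 6 of 24063 genes in macrophages and 6 of 24453 in hepatocytes. The study treated primary mouse cells with 5 compounds, ligands of the liver X receptors (LXR, nuclear receptors that sense sterols) or molecules related to such ligands. Macrophages elicited with thioglycollate gave 3 libraries per group and hepatocytes gave 2, 30 libraries in 12 groups.

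The groups of each cell type were desmosterol at 10 uM, DMHCA at 1 uM, MePipHCA at 1 uM, GW3965 at 1 uM, T0901317 at 1 uM, and vehicle. All of them, vehicle included, were first held for 24 h in lipid-deficient serum (10%) with mevalonate (50 uM) and the statin mevastatin (10 uM), which blocks sterol synthesis, and were collected 18 to 20 h after the ligand was added. Desmosterol is the immediate precursor of cholesterol in the Bloch pathway and a natural LXR ligand. DMHCA and MePipHCA are amides of the same hydroxycholenic acid, the first with a dimethyl amide and the second with a methylpiperidinyl amide. GW3965 and T0901317 are synthetic LXR agonists without a steroid skeleton. Macrophages were kept in an RPMI medium and hepatocytes in Hepatozyme, and the sample titles carry other dates, so that cell type, medium and date cannot be told apart. Nothing says that replicates came from separate animals or cultures, so the p-values speak of the spread among these libraries, which could be technical. Library totals lay between 3862655 and 15685961 counts in macrophages and between 6627812 and 18626562 in hepatocytes.

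Lipoprotein lipase, the product of Lpl, splits the triglycerides of circulating particles at the vessel wall, and macrophages secrete it too. It leaves the endoplasmic reticulum only after folding with the help of Lmf1, and Angptl4 inactivates it. Hepatic lipase, from Lipc, hydrolyses the lipids of remnants and of high density lipoprotein (HDL), Lcat esterifies the cholesterol carried on HDL, and Pltp moves phospholipids between particles. Lpl and Pltp are textbook LXR target genes, and Angptl4 is a textbook target of the fatty acid receptors called PPARs.

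Lpl and Pltp stood highest of the 6 genes in macrophages and Angptl4 in hepatocytes, and all but Lipc and Lcat had enough counts to be tested in both. On the length-scaled scale (RPKM, counts scaled to transcript length and library total), which allows genes to be compared, vehicle macrophages had 602.5 ± 31.1 for Lpl, 157.7 ± 5.15 for Pltp, 11.03 ± 0.749 for Lmf1 and 5.03 ± 0.192 for Angptl4 (SD, n = 3). Lcat and Lipc stood at 0.233 and 0.141 RPKM there. In vehicle hepatocytes the order was almost turned round, with Angptl4 at 91.9 ± 9.03, Lmf1 at 19.2 ± 1.54, Lipc at 12.02 ± 0.531, Lcat at 9.26 ± 0.301, Pltp at 2.88 ± 0.348 and Lpl at 0.444 ± 0.173 RPKM (SD, n = 2). Hepatocyte markers summed to 29310 to 36920 CPM (counts scaled to the library total) in the hepatocyte libraries, Alb leading, and macrophage markers to 15920 to 22180 CPM in the macrophage libraries, Lyz2 leading, so both labels match the cells.

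Lpl (NM_008509, chr8:68880555-68906932 in mm10, plus strand, 10 exons) rose in macrophages with every ligand, 1.80-fold to 2.56-fold. CPM here use library totals scaled by TMM factors. Lpl had 5117, 4958 and 4863 CPM with desmosterol, 5883, 5817 and 5844 with DMHCA, 5077, 4997 and 5262 with MePipHCA, 7201, 7131 and 6958 with GW3965, and 6524, 6340 and 7152 with T0901317, against 2863, 2655 and 2798 CPM with vehicle. No ligand library overlapped the vehicle libraries. Ordered by mean, GW3965 and T0901317 stood highest and overlapped each other, DMHCA stood apart below them, MePipHCA and desmosterol overlapped, and vehicle was lowest. The log2 fold changes over vehicle ± SE were 0.85 ± 0.04 with desmosterol, 1.08 ± 0.04 with DMHCA, 0.88 ± 0.04 with MePipHCA, 1.36 ± 0.04 with GW3965 and 1.27 ± 0.04 with T0901317, each with an adjusted p of 5.68e-19 or less in edgeR's quasi-likelihood test. The 5 comparisons share the vehicle libraries.

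**Figure D1:**
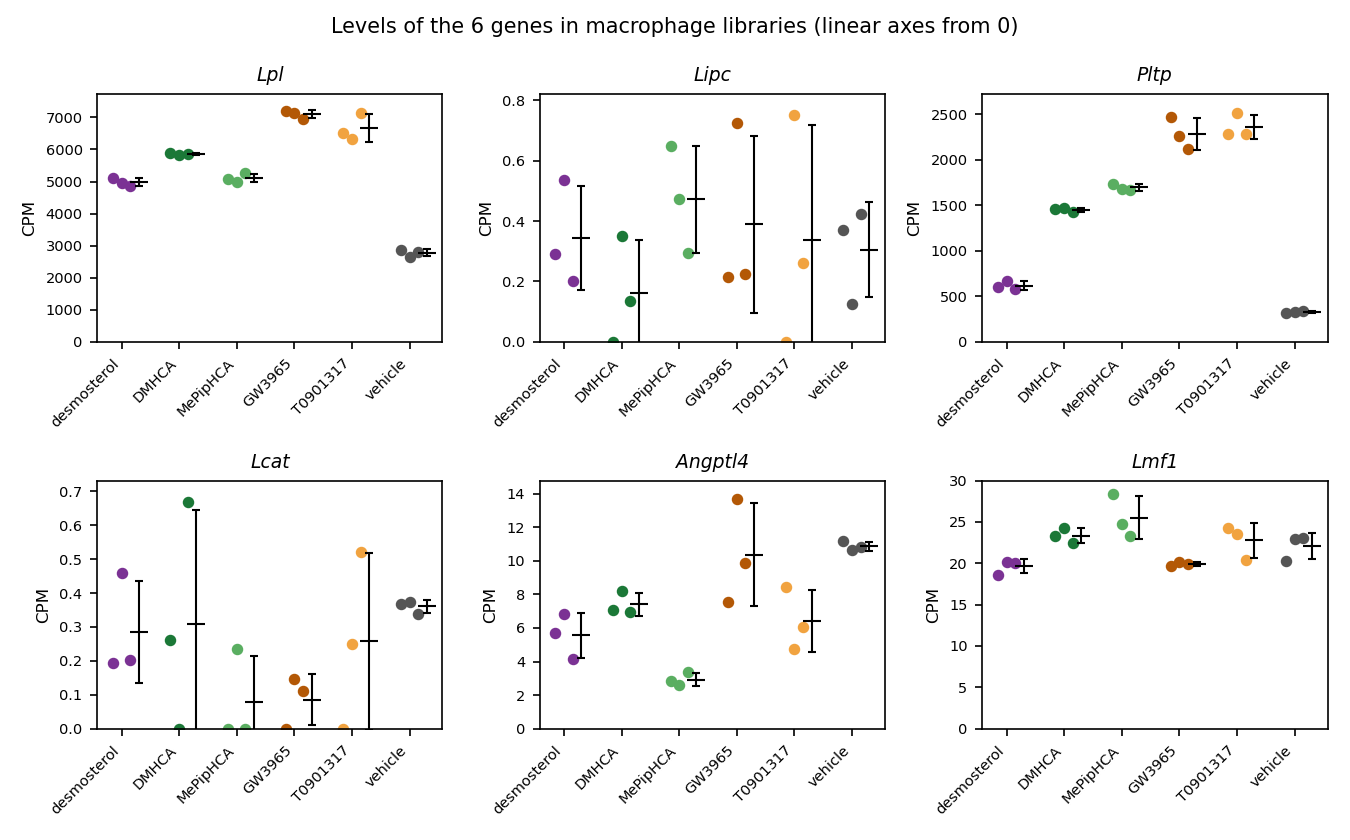
Levels of the 6 genes in the 18 macrophage libraries, in CPM on linear axes that start at 0. Each point is a library and the black bars are mean ± SD (n = 3, cut off at 0); all ligand libraries stand above vehicle for Lpl and Pltp, while Lipc and Lcat stay under 1 CPM.

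Lpl in hepatocytes was a trace transcript that rose with GW3965 and T0901317. It had 11.7 and 10.4 CPM with GW3965 (168 and 184 counts) and 8.43 and 8.12 CPM with T0901317 (120 and 89 counts), against 2.80 and 1.66 CPM with vehicle (36 and 11 counts). Neither pair of libraries overlapped vehicle. The log2 fold change was 2.25 ± 0.38 with GW3965 (4.75-fold, adjusted p = 0.00148, edgeR) and 1.83 ± 0.39 with T0901317 (3.55-fold, adjusted p = 0.012, edgeR). With desmosterol Lpl had 2.98 and 2.31 CPM, with DMHCA 2.41 and 1.97 CPM, and with MePipHCA 3.56 and 1.91 CPM, all overlapping vehicle, and none of these 3 passed the test. Their log2 fold changes lay between -0.09 and 0.20, but the 95% intervals run from -0.93 to 1.03. The T0901317 call was lost without T0901317 replicate 1 (log2 fold change 1.81) and without vehicle replicate 2 (1.56), each of which left 1 library in a group. The GW3965 call held whichever GW3965 or vehicle library was left out. Its log2 fold change was 1.98 to 2.73 over all alternatives, but at its weakest the call came close to the threshold.

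Macrophage and Kupffer cell markers were measured beside this rise, since Lpl RNA in a hepatocyte culture can come from such cells. In bulk RNA fewer cells of a type and less RNA per cell cannot be told apart. Of 18 markers, 17 were tested, and 2 rose with GW3965 and 1 with T0901317, where 0.478% and 0.941% of all genes were called. Clec4f, a lectin of Kupffer cells, had 13.3 and 7.75 CPM with GW3965 against 2.10 and 0.605 CPM with vehicle (log2 fold change 2.81 ± 0.47, adjusted p = 0.00134, edgeR). Cd5l, a protein secreted by macrophages, had 14.5 and 10.8 CPM with GW3965 and 8.57 and 4.38 CPM with T0901317, against 1.40 and 0.907 CPM with vehicle (log2 fold changes 3.38 ± 0.45 and 2.43 ± 0.46, adjusted p = 4.65e-05 and 0.00463, edgeR). Both were highest in the GW3965 libraries, as Lpl was. Cd5l also rose in the macrophage cultures, to 214.1 CPM on average with GW3965 against 48.4 CPM with vehicle (log2 fold change 2.14 ± 0.07), whereas Clec4f had 0 counts in all macrophage libraries.

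No other tested marker passed the test with either ligand. Clec4f with T0901317 had 6.25 and 3.29 CPM (adjusted p = 0.095). Csf1r, the receptor for the growth factor of macrophages, had 8.30 and 6.28 CPM with GW3965 and 3.23 and 1.19 CPM with T0901317, against 2.96 and 2.27 CPM with vehicle (adjusted p = 0.253 and 0.903, edgeR). The lysozyme gene Lyz2 had 6.28 and 5.43 CPM with GW3965 and 6.46 and 7.30 CPM with T0901317, against 16.3 and 3.78 CPM with vehicle. The whole list summed to 410.7 to 468 CPM with GW3965 and to 397.7 to 469.4 CPM with T0901317, against 367.6 to 399.1 CPM with vehicle, with Cd68 the largest part, and its median log2 fold change was 0.35 with GW3965 and -0.23 with T0901317, beside a median of 0.00 over all tested genes. The complement genes C1qa, C1qb and C1qc averaged 4.70, 4.60 and 5.02 CPM with GW3965. With T0901317 they averaged 2.24, 3.00 and 2.02 CPM, against 2.03, 3.60 and 2.37 CPM with vehicle. Besides Lyz2, the markers that averaged lower with GW3965 than with vehicle were Marco, Itgam, Tyrobp and Adgre1. These had 9.87, 0.538, 0.499 and 2.22 CPM with GW3965, against 15.2, 1.42, 0.737 and 2.54 CPM with vehicle. Ptprc, the pan-leukocyte marker, averaged 1.29 CPM with GW3965 and was at 0 in both T0901317 libraries, against 0.661 CPM with vehicle. Timd4 was at 0 in both vehicle libraries. Lpl in hepatocytes stood at 0.156% of its macrophage level with GW3965, at 0.124% with T0901317 and at 0.0805% with vehicle. The same percentage was above its vehicle value for 13 of 17 markers with GW3965 and for 8 of 17 with T0901317. The hepatocyte mean itself was above vehicle for 13 of 18 markers with GW3965 and for 7 of 18 with T0901317. The percentage also rises where the macrophage level falls, as for Adgre1 with GW3965 (0.731%, against 0.593% with vehicle). It rests on few counts where that level is low, as for Timd4 (0.0374 CPM in macrophages with GW3965). Csf1r stood at 0.765% with GW3965, 0.246% with T0901317 and 0.204% with vehicle, and Lyz2 at 0.0541% with GW3965, 0.0667% with T0901317 and 0.0933% with vehicle. The part of macrophages or Kupffer cells in the rise of Lpl was not tested.

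**Figure D2:**
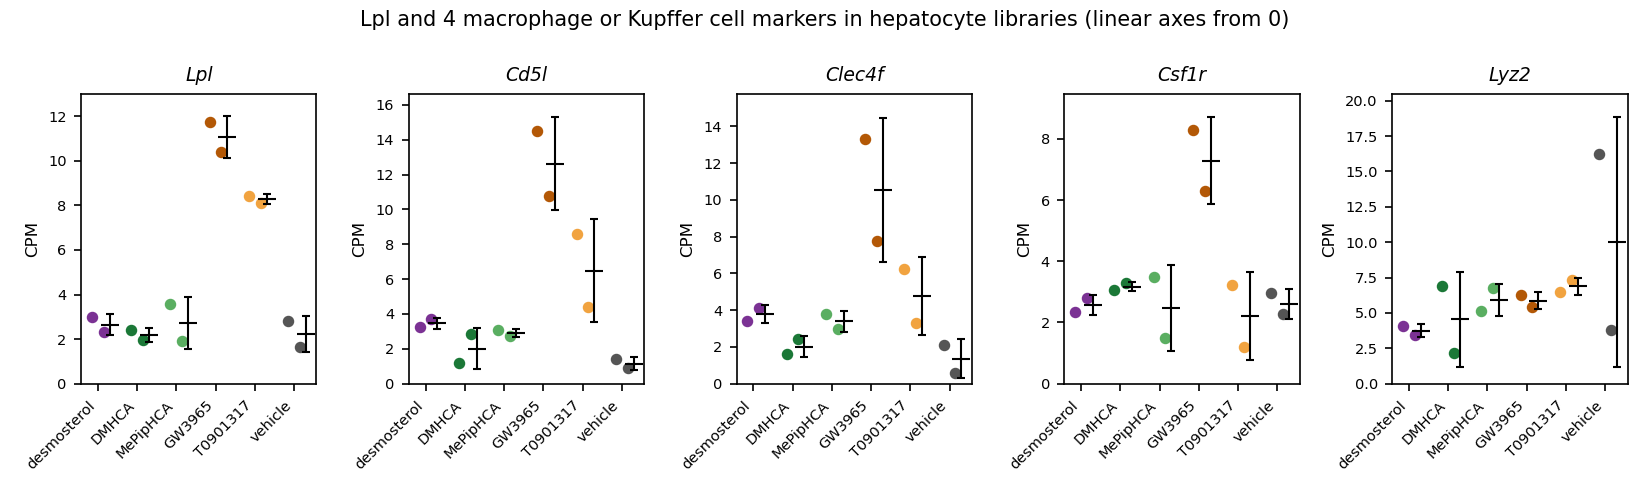
Lpl and 4 macrophage or Kupffer cell markers in the 12 hepatocyte libraries, in CPM on linear axes that start at 0; points are libraries and black bars mean ± SD (n = 2). Lpl, Cd5l and Clec4f are highest with GW3965, Csf1r is high with GW3965 but not with T0901317, and Lyz2 is highest in 1 vehicle library.

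Lipc (NM_008280, chr9:70798128-70934808, minus strand, 9 exons) was a hepatocyte transcript that passed no test. It had 28.8 and 22.1 CPM with desmosterol, 25.5 and 29.8 with DMHCA, 29.6 and 28.1 with MePipHCA, 22.8 and 30.2 with GW3965, and 31.2 and 28.2 with T0901317, against 29.0 and 28.6 CPM with vehicle. Every ligand group overlapped vehicle, and the log2 fold changes lay between -0.19 and 0.05 with 95% intervals that run from -0.53 to 0.39. In macrophages Lipc had 0 to 7 counts per library and was not tested. Its counts were 0 in the libraries DMHCA replicate 1 and T0901317 replicate 1, which allows up to 0.786 and 0.744 CPM (3 counts, counting error only).

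The 250 bases before the starts of Lipc and of Pltp are shown because these genes mark the extremes of the set, a hepatocyte gene that passed no test and the macrophage gene with the largest rise. They are from RefSeq on GRCm38.p6, minus strand, and capitals mark the nuclear receptor core site AGGTCA on either strand.
Lipc, chr9:70934809-70935058: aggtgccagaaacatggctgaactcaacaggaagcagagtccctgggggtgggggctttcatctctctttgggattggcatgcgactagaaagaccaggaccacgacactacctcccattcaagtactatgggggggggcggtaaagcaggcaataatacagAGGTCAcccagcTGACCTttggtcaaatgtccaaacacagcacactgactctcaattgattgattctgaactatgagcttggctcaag
Pltp, chr2:164857709-164857958: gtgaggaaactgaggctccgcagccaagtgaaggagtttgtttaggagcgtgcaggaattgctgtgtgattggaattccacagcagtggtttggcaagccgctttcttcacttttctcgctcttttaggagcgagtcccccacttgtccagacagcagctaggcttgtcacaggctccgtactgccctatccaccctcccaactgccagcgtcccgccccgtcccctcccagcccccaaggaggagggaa
Lipc held the core site at 88 and at 76 bases before its start, once on each strand, and Pltp held none. Of 32851 promoter windows of 250 bases, 14% held this core site on either strand. Both strands were also searched for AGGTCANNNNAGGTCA (the spacing known for LXR, in 0.0152% of windows), AGGTCANAGGTCA (the spacing known for PPARs, 0.0335%), TCACNCCAC (a sterol regulatory element, 1.05%) and TATAAA (12.4%). The first pair of these motifs contain the core site. None of these 4 was in the windows of Lipc, Pltp, Lcat or Lmf1, and Lcat and Lmf1 held no core site. The exact pairs of core sites were in only 5 and 11 of the 32851 windows, so their absence here says little. Inexact sites and sites beyond the 250 bases were not searched. RefSeq windows were matched for 4 of the 6 genes, all but Lpl and Angptl4.

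Pltp (NM_011125, chr2:164839518-164857708, minus strand, 16 exons) had the largest rise of the 6 genes, and only in macrophages did it pass the test. It had 596.3, 670.2 and 573.9 CPM with desmosterol, 1453, 1469 and 1424 with DMHCA, 1736, 1681 and 1667 with MePipHCA, 2470, 2258 and 2119 with GW3965, and 2285, 2511 and 2280 with T0901317, against 311.1, 320.9 and 332.8 CPM with vehicle. T0901317 and GW3965 overlapped at the top, and MePipHCA, DMHCA, desmosterol and vehicle followed without overlap. The log2 fold changes over vehicle were 0.93 ± 0.05 with desmosterol, 2.17 ± 0.06 with DMHCA, 2.40 ± 0.06 with MePipHCA, 2.83 ± 0.06 with GW3965 and 2.87 ± 0.06 with T0901317 (7.33-fold), each with an adjusted p of 2.21e-17 or less (edgeR). In hepatocytes Pltp had 5.49 to 9.98 CPM over all libraries and 6.84 and 6.05 CPM with vehicle, and its log2 fold changes of 0.10 to 0.35 passed no test (95% intervals within -0.54 to 0.99).

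Pltp shares 495 of its 1809 exon bases (27.4%) with Ctsa, the gene of a lysosomal carboxypeptidase on the plus strand, and no other gene of the 6 shares exon bases with another gene. The headers of the tables state no strand option, so it is not known whether reads of the shared bases were counted for both genes. In macrophages Ctsa averaged 2248 CPM with desmosterol, 2296 with DMHCA, 2176 with MePipHCA, 2362 with GW3965 and 2303 with T0901317, against 2059 CPM with vehicle, and its log2 fold changes were 0.08 to 0.20, where Pltp had 0.93 to 2.87. GW3965 was the single ligand with a Ctsa call (0.20 ± 0.06, adjusted p = 0.0117, edgeR). In vehicle hepatocytes Ctsa stood at 50.1 RPKM and Pltp at 2.88 RPKM. The part of Ctsa reads in the Pltp levels of either cell type was not tested.

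**Figure D3:**
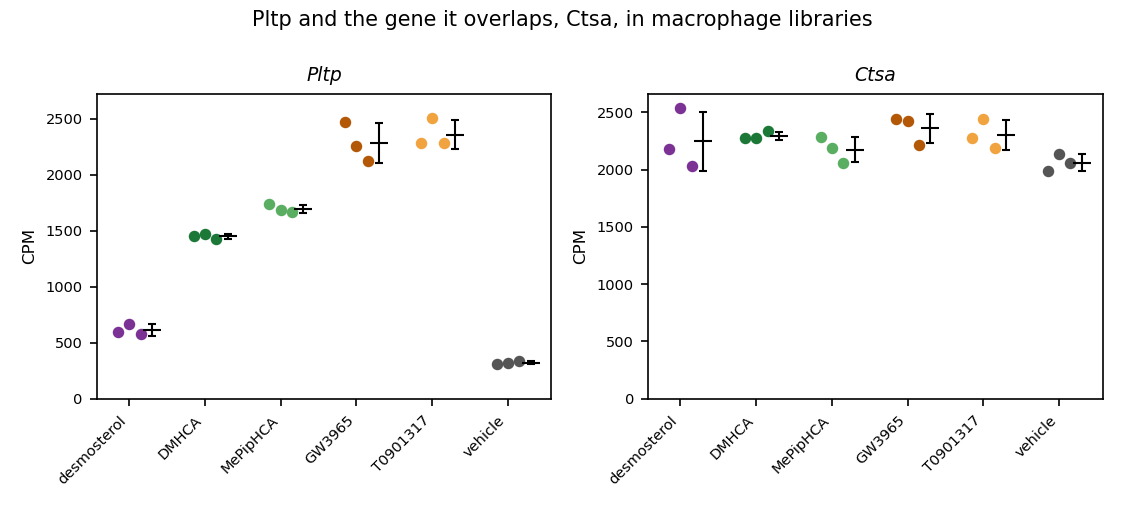
Pltp and the overlapping gene Ctsa in the 18 macrophage libraries, in CPM on linear axes that start at 0; points are libraries and black bars mean ± SD (n = 3). With each ligand Pltp stands above the vehicle mean of 321.6 CPM, whereas Ctsa averages 2176 to 2362 CPM with ligands and 2059 CPM with vehicle.

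Lcat (NM_008490, chr8:105939551-105943402, minus strand, 6 exons) was likewise a hepatocyte transcript that passed no test. It had 17.9 and 19.1 CPM with desmosterol, 16.8 and 15.3 with DMHCA, 13.2 and 14.4 with MePipHCA, 13.0 and 19.6 with GW3965, and 18.0 and 16.3 with T0901317, against 15.0 and 16.5 CPM with vehicle. Both desmosterol libraries lay above and both MePipHCA libraries below vehicle, but the log2 fold changes of 0.24 ± 0.20 and -0.18 ± 0.20 had adjusted p of 0.816 and 0.814 (edgeR). In macrophages Lcat had 0 to 6 counts per library, too few to test. It was at 0 in 5 of 18 libraries, where 0 counts allow up to 0.44 to 0.744 CPM.

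**Figure D4:**
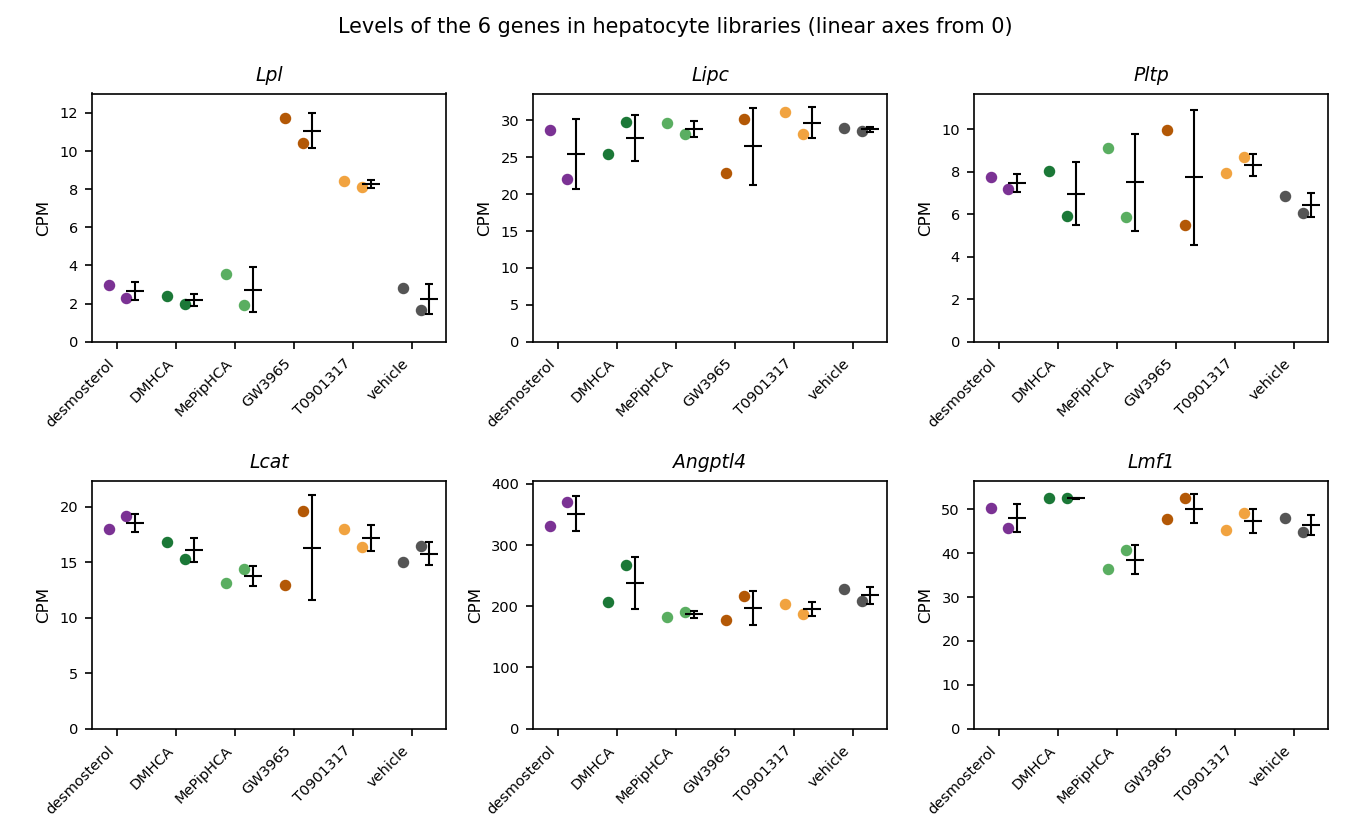
Levels of the 6 genes in the 12 hepatocyte libraries, in CPM on linear axes that start at 0. Each point is a library and the black bars are mean ± SD (n = 2); Lpl stands out with GW3965 and T0901317 and Angptl4 with desmosterol.

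Angptl4 (NM_020581, chr17:33774900-33781575, minus strand, 7 exons) responded to desmosterol in opposite directions in the 2 cell types. In hepatocytes it had 331.6 and 371.3 CPM with desmosterol, 207.6 and 267.5 with DMHCA, 183 and 190.3 with MePipHCA, 177.1 and 216.7 with GW3965, and 203.1 and 187.8 with T0901317, against 228 and 208 CPM with vehicle. Both desmosterol libraries stood above all others. Desmosterol gave a log2 fold change of 0.69 ± 0.11 (1.61-fold, adjusted p = 0.00109, edgeR), and the other ligands gave -0.23 to 0.12, none of which passed the test. The desmosterol call held under all alternatives (0.60 to 0.77), but at its weakest came close to the threshold.

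In macrophages Angptl4 was low and fell with 3 of the 5 ligands. It had 5.70, 6.81 and 4.15 CPM with desmosterol, 7.07, 8.21 and 6.95 with DMHCA, 2.82, 2.59 and 3.37 with MePipHCA, 7.56, 13.7 and 9.87 with GW3965, and 8.43, 4.76 and 6.08 with T0901317, against 11.2, 10.6 and 10.8 CPM with vehicle. GW3965 overlapped vehicle and the other ligands lay below it. MePipHCA stood apart at the bottom. The log2 fold changes were -1.86 ± 0.24 with MePipHCA (adjusted p = 2.78e-08), -0.95 ± 0.18 with desmosterol (adjusted p = 0.000171) and -0.77 ± 0.20 with T0901317 (adjusted p = 0.00423, edgeR). DMHCA gave -0.55 ± 0.19 and missed the threshold (adjusted p = 0.0577), and GW3965 gave -0.04 ± 0.18 (95% interval -0.40 to 0.31). The T0901317 call was lost without its replicate 3 (adjusted p = 0.0667), and the DMHCA change passed in a fit of these groups alone (adjusted p = 0.0173, edgeR).

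Other cells that express Angptl4 were looked for in the macrophage cultures. Markers of stellate cells and fibroblasts summed to 84.89 to 102.4 CPM with MePipHCA, 152.7 to 217.6 with DMHCA and 240.6 to 307.1 with desmosterol. The sums were 234.5 to 235 CPM with GW3965 and 270.5 to 353.8 with T0901317, against 250.6 to 321.7 CPM with vehicle. All 6 that were tested fell with MePipHCA, 5 with DMHCA, 1 with GW3965 and 0 with desmosterol or T0901317. Of all tested genes, 35.4% were called with MePipHCA, 11.7% with DMHCA, 13.2% with GW3965, 9.5% with desmosterol and 12.8% with T0901317. With MePipHCA 3 of 4 mesothelial markers fell (summed level 7.547 to 8.8 CPM, against 20.02 to 25.68 CPM with vehicle), and so did 11 of 15 tested macrophage markers (15920 to 16090 CPM, against 20170 to 20370 CPM with vehicle), where 35.4% of all genes were called. The 7 adipocyte markers summed to at most 0.786 CPM in any macrophage library. The part of these cells in the fall of Angptl4 with MePipHCA was not tested.

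Lmf1 (NM_029624, chr17:25579174-25662826, plus strand, 11 exons) passed no test against vehicle in either cell type. Its macrophage means were 19.6 CPM with desmosterol, 23.3 with DMHCA, 25.5 with MePipHCA, 19.9 with GW3965 and 22.8 with T0901317, against 22.1 ± 1.55 CPM with vehicle, and its log2 fold changes lay between -0.17 and 0.19. In hepatocytes it had 36.3 and 40.8 CPM with MePipHCA against 48.0 and 44.7 CPM with vehicle (log2 fold change -0.27 ± 0.13, adjusted p = 0.401, edgeR), and the other ligand groups averaged 47.3 to 52.6 CPM. The deposited RPKM tables use another transcript of Lmf1 than the count tables.

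Counted over the set, 4 of the 6 genes were tested in macrophages and 6 in hepatocytes. In macrophages 3 of the 4 were called with desmosterol, MePipHCA and T0901317 (Lpl and Pltp higher, Angptl4 lower), and 2 of the 4 with DMHCA and GW3965 (Lpl and Pltp higher). Over all 11544 tested genes the share called was 9.5% with desmosterol, 11.7% with DMHCA, 35.4% with MePipHCA, 13.2% with GW3965 and 12.8% with T0901317. In hepatocytes 1 of the 6 was called with desmosterol (Angptl4), 1 with GW3965 and 1 with T0901317 (Lpl in both, all higher), where the share called over 13176 genes was 0.364%, 0.478% and 0.941% in that order. None of the 6 was called with MePipHCA, where 2.17% of genes were, or with DMHCA, where 0% were. In the DMHCA comparison edgeR and DESeq2 each called 0 genes, and 615 of 13176 had an unadjusted p under 0.05 in edgeR. That is near the share of 0.05 that would be expected if no gene changed. The 2 DMHCA libraries differed more from each other than the libraries of any other hepatocyte group. The chi-square of their counts per degree of freedom was 13.2, against 5.66 to 7.58 in the other groups. Leaving out hepatocyte DMHCA replicate 2 or vehicle replicate 2 moved the count of calls for DMHCA, but left 1 library in a group.

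**Figure D5:**
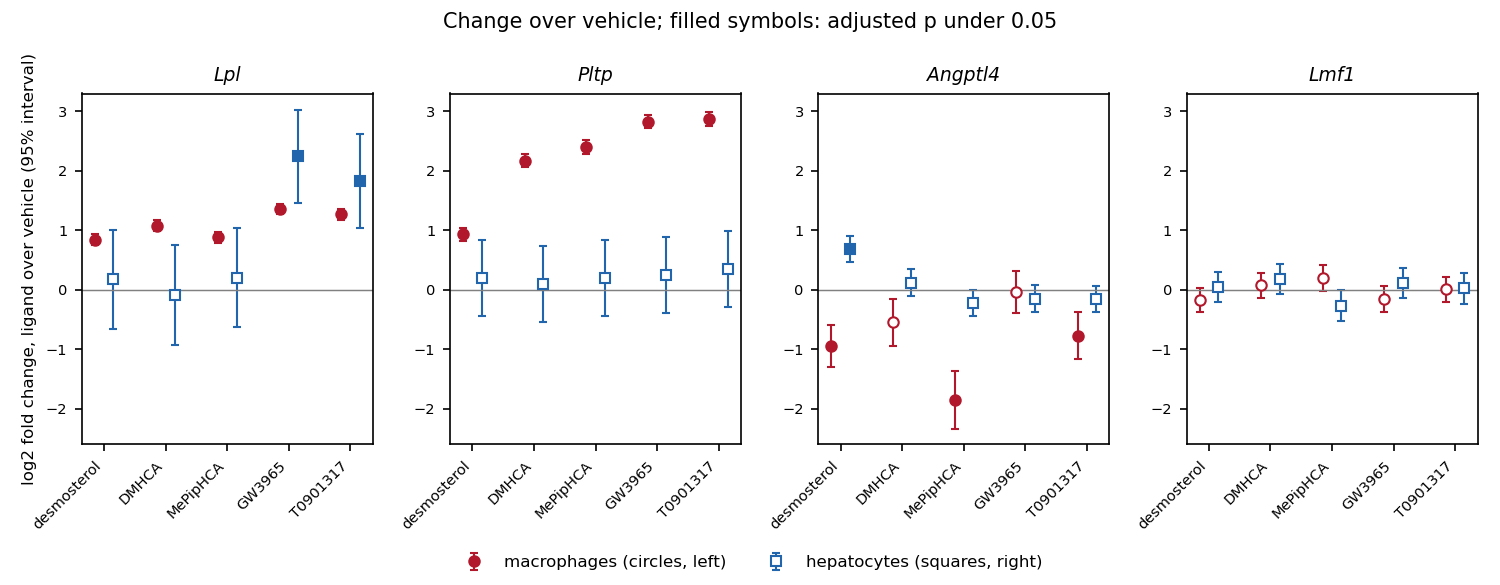
Log2 fold changes over vehicle with 95% intervals for the 4 genes tested in both cell types, red circles for macrophages and blue squares for hepatocytes, filled where the adjusted p was under 0.05 (edgeR). Pltp rises in macrophages with every ligand and in hepatocytes passes with none, and Angptl4 points in opposite directions with desmosterol.

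The ligands given at 1 uM were compared with each other in 4 pairs per cell type, with p adjusted over all genes of each pair and not over the pairs. MePipHCA and DMHCA, which differ in the amide group, differed in 3 of the 4 genes tested in macrophages, where 22.9% of all genes were called. With MePipHCA, Lpl was lower than with DMHCA (log2 fold change -0.19 ± 0.04, adjusted p = 0.000763), Pltp was higher (0.23 ± 0.05, adjusted p = 0.00124) and Angptl4 was lower (-1.31 ± 0.28, adjusted p = 0.000329, edgeR). Lmf1 gave 0.12 with a 95% interval of -0.12 to 0.36. In hepatocytes 1 of 6 differed between these compounds (3.3% of all genes called): Lmf1 had 36.3 and 40.8 CPM with MePipHCA and 52.5 and 52.6 CPM with DMHCA (log2 fold change -0.44 ± 0.12, adjusted p = 0.0395, edgeR). That call was lost in a fit of these groups alone (adjusted p = 0.081) and without any 1 of the 4 libraries (adjusted p of 0.0697 to 0.381, edgeR).

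Both steroid amides stayed below T0901317 for Lpl and Pltp in macrophages. DMHCA against T0901317 gave -0.19 ± 0.04 for Lpl (adjusted p = 0.00376) and -0.70 ± 0.05 for Pltp (adjusted p = 1.86e-13), 2 of 4 genes where 5.12% of all genes were called. MePipHCA against T0901317 gave -0.39 ± 0.04 for Lpl, -0.48 ± 0.05 for Pltp and -1.08 ± 0.28 for Angptl4 (adjusted p = 2.62e-09, 1.45e-09 and 0.00279, edgeR), 3 of 4 genes where 25.9% were called. The Lpl difference between DMHCA and T0901317 was lost without T0901317 replicate 3 (adjusted p = 0.0924, edgeR). In hepatocytes Lpl was lower with DMHCA (-1.92 ± 0.37, adjusted p = 0.00388) and with MePipHCA (-1.63 ± 0.36, adjusted p = 0.00535, edgeR) than with T0901317, 1 of 6 genes in each pair, where 0.987% and 6.05% of all genes were called. The MePipHCA difference was lost without MePipHCA replicate 2 (log2 fold change -1.22), which left 1 library in that group. The DMHCA difference held under all alternatives (-2.07 to -1.77), but at its weakest came close to the threshold.

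GW3965 and T0901317, the synthetic agonists, gave no call between them in any of the 6 genes. In macrophages 2 of all genes (0.0173%) were called between them, Steap3 and Rn45s, named after their values were seen, and the log2 differences were 0.09 for Lpl (95% interval 0.001 to 0.18) and -0.05 for Pltp (-0.15 to 0.06). Angptl4 gave 0.73 with an interval of 0.31 to 1.16, but an adjusted p of 0.5 (edgeR). In hepatocytes edgeR and DESeq2 each called 0 genes (0%), and Lpl gave 0.42 with an interval of -0.27 to 1.10. An unadjusted p under 0.05 in edgeR was found for 667 of 13176 genes, near the share of 0.05 expected if no gene changed. Desmosterol was given at 10 uM and was not tested against the others. Its place in the orders of means above carries that difference in dose.

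The difference between cell types was tested itself, as a ligand's log2 change over vehicle in macrophages minus that in hepatocytes. It is given for the 4 genes tested in both cell types, since Lipc and Lcat had too few macrophage counts. Pltp differed with DMHCA (2.08 ± 0.25), MePipHCA (2.27 ± 0.25), GW3965 (2.60 ± 0.25) and T0901317 (2.55 ± 0.25), each with an adjusted p of 5.52e-08 or less (edgeR), and with desmosterol gave 0.76 ± 0.24 (adjusted p = 0.0843). Angptl4 differed with desmosterol (-1.62 ± 0.20, adjusted p = 2.09e-07) and MePipHCA (-1.61 ± 0.27, adjusted p = 2.57e-05, edgeR). Lpl rose more in macrophages than in hepatocytes with DMHCA (1.21 ± 0.30, adjusted p = 0.0149) and less with GW3965 (-0.86 ± 0.23, adjusted p = 0.0259, edgeR). This test takes 1 spread per gene over both cell types. Its SE for Lpl was below that in hepatocytes alone, which was 0.41 with DMHCA and 0.38 with GW3965. The SEs for Pltp were also below those in hepatocytes alone (0.31). The SEs of these Lpl and Pltp differences may thus understate the spread in hepatocytes. Lmf1 differed with MePipHCA (0.48 ± 0.16, adjusted p = 0.0412, edgeR), a call lost in 9 of 13 alternatives (adjusted p of 0.0558 to 0.194 in these 9). The calls were thus 1 of 4 with desmosterol, 2 with DMHCA, 3 with MePipHCA, 2 with GW3965 and 1 with T0901317, where 2.53%, 2.75%, 9.66%, 3.11% and 3.64% of 13700 genes were called in that order. The Lpl call with DMHCA was lost without hepatocyte DMHCA replicate 2 (adjusted p = 0.0639) or vehicle replicate 1 (value 0.67, adjusted p = 0.648), and that with GW3965 without hepatocyte GW3965 replicate 1 (adjusted p = 0.0913) or vehicle replicate 2 (adjusted p = 0.215, edgeR).

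Partners and regulators of the lipases formed a list of 20 genes, of which 9 were tested in macrophages and 17 in hepatocytes. In macrophages 0 rose and 3 fell with desmosterol, 1 rose and 3 fell with DMHCA, 3 rose and 5 fell with MePipHCA, and 1 rose and 1 fell with GW3965 and with T0901317. Of all tested genes, 9.5% were called with desmosterol, 11.7% with DMHCA, 35.4% with MePipHCA, 13.2% with GW3965 and 12.8% with T0901317. The list's median log2 fold change lay between -0.23 and 0.03, beside 0.00 over all tested genes. Apoc2, the protein cofactor that lipoprotein lipase requires, averaged 8.18 CPM with DMHCA, 15.0 with MePipHCA, 13.5 with GW3965 and 11.5 with T0901317, against 3.88 CPM with vehicle, and rose with these 4 (log2 fold changes 1.06 ± 0.20, 1.98 ± 0.18, 1.80 ± 0.18 and 1.56 ± 0.19). With desmosterol it averaged 4.53 CPM and was not called. Lipg, endothelial lipase, averaged 1.61 CPM with desmosterol, 1.73 with DMHCA and 0.255 with MePipHCA, against 4.27 CPM with vehicle (log2 fold changes -1.41 ± 0.28, -1.22 ± 0.32 and -4.01 ± 0.51, all called). Sort1, a sorting receptor that binds lipoprotein lipase, fell with all 5 ligands (-0.19 to -0.77). Hspg2, the proteoglycan perlecan, fell with MePipHCA (-1.76 ± 0.17).

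In hepatocytes Apoc2 was the one partner that was called. It averaged 370.2 CPM with desmosterol and 176.3 CPM with MePipHCA, against 252 CPM with vehicle, a rise of 0.56 ± 0.10 with desmosterol (adjusted p = 0.00602) and a fall with MePipHCA (log2 fold change -0.51 ± 0.10, adjusted p = 0.0032, edgeR). Angptl8, a liver-made regulator of lipoprotein lipase, was called with no ligand. No partner was called with DMHCA, GW3965 or T0901317, and the list's median lay between -0.12 and 0.15. Of all tested genes, 0.364% were called with desmosterol, 2.17% with MePipHCA, 0% with DMHCA, 0.478% with GW3965 and 0.941% with T0901317.

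HDL and lipoprotein remodelling genes formed a list of 17, with 10 tested in macrophages and 17 in hepatocytes. The cholesterol exporters Abca1 and Abcg1, taken here as a check that the ligands acted, rose with all 5 ligands in macrophages (log2 fold changes of 2.99 to 4.33 and 1.94 to 2.86). LXR activity itself was not measured. In hepatocytes Abca1 and Abcg1 rose with GW3965 (2.24 ± 0.09 and 4.10 ± 0.69) and T0901317 (2.41 ± 0.09 and 4.44 ± 0.69), the ligands with which Lpl rose there. The part of macrophages or Kupffer cells in these rises was not tested. With MePipHCA Abca1 fell in hepatocytes (-0.79 ± 0.09), as did Lrp1 and Apoa1. The list's counts were 4 up and 3 down with desmosterol, 5 and 3 with DMHCA and with MePipHCA, 7 and 1 with GW3965, and 6 and 1 with T0901317 in macrophages (median 0.08 to 0.33). In hepatocytes they were 4 down with MePipHCA, 4 up with GW3965, 3 up with T0901317 and 0 with desmosterol or DMHCA (median -0.26 to 0.08). The shares of all tested genes called are given here in the order desmosterol, DMHCA, MePipHCA, GW3965 and T0901317. They were 9.5%, 11.7%, 35.4%, 13.2% and 12.8% in macrophages, and 0.364%, 0%, 2.17%, 0.478% and 0.941% in hepatocytes.

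Pltp belongs to the family of lipid-binding proteins that includes Lbp, the carrier of bacterial lipopolysaccharide. Of the 6 family members listed, Lbp was the one tested in either cell type, and it rose with all 5 ligands in macrophages. It averaged 5.76 CPM with desmosterol, 16.8 with DMHCA, 17.9 with MePipHCA, 26.8 with GW3965 and 25.8 with T0901317, against 1.57 CPM with vehicle (log2 fold changes of 1.84 to 4.09). In hepatocytes its log2 fold changes lay between -0.35 and 0.13, none called.

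Genes whose log2 CPM followed the members most closely are given as a description, over libraries that share the ligand groups and the scaling. Over the 18 macrophage libraries they were Pik3cd, Myo1e and Nrp1 for Lpl (Pearson r of 0.982, 0.977 and 0.977), AB124611, Cd38 and Lbp for Pltp (0.981 each) and Npc2, Sidt2 and Txnip for Angptl4 (0.939, 0.878 and 0.874). Over the 12 hepatocyte libraries they were Paqr8, Scd1 and H2-K1 for Lpl (0.944, 0.942 and 0.936) and Tuft1, Gjb2 and Hnf4a for Angptl4 (0.919, 0.915 and 0.912).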

How the data were processed

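Polyadenylated RNA was sequenced from 18 macrophage and 12 hepatocyte libraries with dUTP-marked second strands, per the labels' protocols. The submitters' processing notes name STAR, HOMER and the build mm10, with versions not given in the sources used here. The deposited count tables hold raw exon counts for 1 RefSeq transcript of each gene, with a column for each library, per the file headers. Per the file headers, the deposited RPKM tables hold such counts scaled to transcript length and sequencing depth, and were used to compare genes within a cell type. Replicates within groups differed by more than sampling noise.

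Counts were tested with edgeR 4.0.16 (R 4.3.3) by the quasi-likelihood test, after filterByExpr and TMM scaling, with 1 mean per group over the 6 groups of a cell type. Differences between cell types came from 1 fit of 30 libraries joined by symbol. The residual degrees of freedom were 12, 6 and 18. P-values were adjusted by Benjamini-Hochberg over all tested genes, and calls were made under 0.05 with no threshold on the fold change. The SE is the log2 fold change over the root of F, and intervals are at 95%. Intervals include the spread between replicates. The fits were tested on simulated data. Alternatives were RLE scaling, no filter, a replicate block, leaving out each library, a fit of the compared groups only and DESeq2 1.42.0 (without independent filtering). Exons came from GENCODE on mm10, promoters from RefSeq on GRCm38.p6, and plots from matplotlib.

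The 6 genes and all lists were chosen with earlier results of these data known. Named genes were the 6, Abca1, Abcg1, up to 4 per list with the largest called change, the 3 most correlated genes per called member, and the markers.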

Additional observations from a re-analysis of the deposited data

Results flagged for a closer look

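In 9 cases the test of the difference between cell types was passed (edgeR, adjusted p under 0.05), each value being a log2 change over vehicle in macrophages minus that in hepatocytes. Pltp gave 2.08 with DMHCA, 2.27 with MePipHCA, 2.60 with GW3965 and 2.55 with T0901317, a rise in macrophages beside no called change in hepatocytes. Angptl4 gave -1.62 with desmosterol, where it fell in macrophages and rose in hepatocytes, and -1.61 with MePipHCA, where it fell in macrophages and was not called in hepatocytes. Lpl, a trace transcript in hepatocytes, gave 1.21 with DMHCA, with a rise in macrophages alone called, and -0.86 with GW3965, with a rise in both. Each of these calls was lost when either of 2 hepatocyte libraries was left out. The values were then 1.05 and 0.67 with DMHCA, and -0.77 and -0.64 with GW3965. Lmf1 gave 0.48 with MePipHCA, with a call in neither cell type, and was lost in 9 of 13 alternatives (adjusted p of 0.0558 to 0.194, edgeR). For Lpl and Pltp the SEs of these differences were below those in hepatocytes alone, as the test takes 1 spread per gene over both cell types. Medium and date differ with the cell type and cannot be told apart from it.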

How the results depend on the processing

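Of 36 changes of the 6 genes that were called, 28 kept their call under every alternative run for them and 0 changed direction, and of 74 that were not called, 7 gained a call under some alternative, while 31 took the other sign under one without a call. RLE scaling changed no count of called members by over 1.5 times, nor did DESeq2 within a cell type; DESeq2 was not run for the differences between cell types. Without the filter on low counts the members called were 2 for MePipHCA against DMHCA in hepatocytes, 2 for the desmosterol difference between cell types and 2 for the T0901317 difference, where 1 was called in each otherwise. A fit of the compared groups alone gave 0 for MePipHCA against DMHCA in hepatocytes. The cause was not tested.

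Deviations from group means of same-numbered libraries correlated at a median of 0.026 in macrophages (maximum 0.142) and 0.004 in hepatocytes (maximum 0.062). For libraries with other numbers the medians were -0.013 and -0.004. Replicate numbers were therefore not treated as pairs, though low correlations cannot exclude a pairing. With the replicate block, 2 members were called for MePipHCA against DMHCA in hepatocytes, and no other count of called members moved by over 1.5 times.

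Leaving out 1 library gave 1 to 2 called members for DMHCA against T0901317 in macrophages, and in hepatocytes 0 to 1 for T0901317 against vehicle, 0 to 1 for MePipHCA against DMHCA, 1 to 2 for DMHCA against T0901317 and 0 to 1 for MePipHCA against T0901317. For the differences between cell types it gave 1 to 3 with DMHCA and 1 to 2 with GW3965. The Lmf1 difference with MePipHCA was lost under RLE scaling (adjusted p = 0.0726, edgeR), without the filter and without any 1 of 7 libraries.

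Over all genes, removing the filter gave 139 calls instead of 48 with desmosterol in hepatocytes, 163 instead of 63 with GW3965, 256 instead of 124 with T0901317, 22 instead of 0 with DMHCA, and 271 instead of 130 for DMHCA against T0901317, and between GW3965 and T0901317 15 instead of 2 in macrophages and 9 instead of 0 in hepatocytes. A fit of the compared groups alone gave 8 instead of 2 between GW3965 and T0901317 in macrophages, and in hepatocytes 490 instead of 286 with MePipHCA, 107 instead of 63 with GW3965 and 63 instead of 130 for DMHCA against T0901317, and DESeq2 gave 85 instead of 48 with desmosterol, 201 instead of 124 with T0901317 and 200 instead of 130 for DMHCA against T0901317. Leaving out 1 library also moved such counts. In hepatocytes the lowest and highest counts were 15 (without desmosterol replicate 2) and 41 with desmosterol, 114 (without MePipHCA replicate 2) and 207 with MePipHCA, 28 (without GW3965 replicate 1) and 54 with GW3965, and 48 (without T0901317 replicate 1) and 107 with T0901317. They were 177 (without MePipHCA replicate 1) and 779 (without DMHCA replicate 2) for MePipHCA against DMHCA, 59 (without T0901317 replicate 1) and 168 for DMHCA against T0901317, and 298 (without MePipHCA replicate 1) and 482 for MePipHCA against T0901317. In macrophages desmosterol gave 665 instead of 1097 and DMHCA 898 instead of 1350 without vehicle replicate 2, DMHCA against T0901317 gave 336 instead of 591 without DMHCA replicate 3, and GW3965 against T0901317 gave 0 to 2. Between cell types, leaving out hepatocyte vehicle replicate 1 gave 207 instead of 346 with desmosterol, 202 instead of 377 with DMHCA, 260 instead of 426 with GW3965 and 331 instead of 498 with T0901317, and DMHCA gave 648 without hepatocyte DMHCA replicate 2. Depth limits Lipc and Lcat in macrophages and Lpl in hepatocytes, where a vehicle library held 11 counts.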

Other observations

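Of 11 listed genes of intracellular lipid hydrolysis, 7 were tested in macrophages, 0 rose with any ligand, and 2 fell with desmosterol, 2 with DMHCA, 4 with MePipHCA, 2 with GW3965 and 3 with T0901317 (median log2 fold change -0.24 to -0.05), where 9.5%, 11.7%, 35.4%, 13.2% and 12.8% of all genes were called in that order. Mgll, which cleaves monoacylglycerols, averaged 339.8 CPM with DMHCA, 306.1 with MePipHCA, 254.3 with GW3965 and 233.8 with T0901317, against 415.7 CPM with vehicle, and fell with these 4 (log2 fold changes -0.29, -0.44, -0.71 and -0.83). Lipa, the lysosomal acid lipase, fell with MePipHCA, GW3965 and T0901317 (-0.18, -0.26 and -0.25), and Pnpla2, the lipase of fat droplets, with desmosterol, DMHCA and T0901317 (-0.39, -0.24 and -0.21). In hepatocytes all 11 were tested and 0 were called with any ligand in edgeR.

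PPAR targets formed a list of 14 genes. In macrophages, where Angptl4 fell with 3 ligands, 10 were tested. Of these, 1 rose and 0 fell with desmosterol, and 1 rose and 1 fell with DMHCA and with GW3965. With MePipHCA 2 rose and 3 fell, and with T0901317 0 rose and 2 fell. Of all genes, 9.5% were called with desmosterol, 11.7% with DMHCA, 35.4% with MePipHCA, 13.2% with GW3965 and 12.8% with T0901317. The list's median log2 fold change lay between -0.07 and 0.13. Fabp4, a fatty acid binding protein, fell with DMHCA, MePipHCA, GW3965 and T0901317 (log2 fold changes -0.24, -0.56, -0.41 and -0.51). In hepatocytes, where Angptl4 rose with desmosterol, 1 of 14 was called (0.364% of all genes were), the kinase gene Pdk4, which fell with desmosterol (-0.99 ± 0.19, adjusted p = 0.0102, edgeR).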
